A study of Homo sapiens with 21 samples.

Results

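The genes described here are 8 type I and type III interferon genes of the H1975 RNA-seq expression table, which lists 34021 genes. They are IFNB1, IFNA1, IFNE and IFNK of type I, and IFNL1, IFNL2, IFNL3 and IFNL4 of type III. They were matched by gene symbol, and all 8 symbols were found. They were chosen by their FPKM values in these same libraries, after those had been seen, so their own levels are given as a description, without a test, and tests are given only for other genes. H1975 is an established line from a human lung adenocarcinoma with mutant EGFR, the epidermal growth factor receptor gene. RNA was profiled after 8 days of culture in 3 groups of 3 libraries, all labelled as the same line and none as separately established clones. Osi_cIGF1R received osimertinib at 500 nM, a drug that blocks mutant EGFR by binding it covalently, together with overexpression of cIGF1R, taken from its name as a circular RNA of the growth factor receptor gene IGF1R. Osi_Lin_EV received osimertinib at 500 nM and linsitinib at 500 nM, which blocks the kinase activity of IGF1R and of the insulin receptor. DMSO_EV received the vehicle. EV stands in the titles of Osi_Lin_EV and DMSO_EV and is not spelled out, and the label of Osi_cIGF1R does not carry it. Osi_cIGF1R and DMSO_EV therefore differ in drug, overexpression and EV at once. Osi_cIGF1R and Osi_Lin_EV differ in overexpression, linsitinib and EV. The RNA-seq libraries hold no group with osimertinib and EV alone.

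Interferons are secreted cytokines that put neighbouring cells into an antiviral state. Most cells hold them silent until receptors for foreign or misplaced nucleic acid, such as RIG-I, MDA5, TLR3 or the cGAS and STING pair, switch on the transcription factors IRF3, IRF7 and NF-kB. Type I interferons (interferon beta from IFNB1, interferon alpha from the IFNA genes, and the epithelial interferons epsilon and kappa) bind the receptor chains IFNAR1 and IFNAR2. Type III interferons, or interferon lambda, bind IFNLR1 and IL10RB, and IFNLR1 is largely restricted to epithelial cells, the tissue from which lung carcinomas arise. Both receptors pass the signal through the kinases JAK1 and TYK2 to factors that include STAT2 and IRF9, which turn on interferon-stimulated genes.

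The values are taken as FPKM, fragments scaled to gene length and library size, a per-length scale on which levels of different genes can be compared. The deposited table names no unit, and its fractional values and unequal library totals point to FPKM. The depth of sequencing cannot be read from them, so values carry no counting interval, and a gene at exactly 0 is called listed at 0. Such zeros were rare among expressed genes: 88 of 13022 genes with a mean of at least 1 FPKM were listed at 0 in some library, and none of 10 housekeeping genes was. Separate cultures are not mentioned for the replicates, so the p-values of other genes reflect how far these libraries scatter, possibly for technical reasons. In bulk RNA, a change in the share of cells that express a gene and a change in RNA per cell cannot be told apart.

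The 250 bases upstream of the RefSeq transcription start (GRCh38.p14) of the members with the highest levels in Osi_cIGF1R other than IFNE are printed because interferon genes are known to be switched on through elements in this window. They are IFNB1 at chr9:21077943-21078192 on the minus strand, IFNL1 at chr19:39296157-39296406 on the plus strand, IFNL2 at chr19:39268146-39268395 on the plus strand and IFNL3 at chr19:39245251-39245500 on the minus strand. Each is written 5′ to 3′ along its own gene and ends at the base before the start. Capitals mark matches to AANNGAAA, the core of elements bound by interferon regulatory factors (IRFs), on either strand.
IFNB1: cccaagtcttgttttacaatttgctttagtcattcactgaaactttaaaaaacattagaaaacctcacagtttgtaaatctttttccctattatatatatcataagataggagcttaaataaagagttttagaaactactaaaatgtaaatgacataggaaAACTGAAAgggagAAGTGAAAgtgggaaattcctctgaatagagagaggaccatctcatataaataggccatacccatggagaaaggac
IFNL1: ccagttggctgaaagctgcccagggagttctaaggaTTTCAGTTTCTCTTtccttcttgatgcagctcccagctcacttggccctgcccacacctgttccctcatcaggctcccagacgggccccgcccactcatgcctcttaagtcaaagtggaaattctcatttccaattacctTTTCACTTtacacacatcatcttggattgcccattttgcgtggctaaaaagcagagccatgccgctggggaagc
IFNL2: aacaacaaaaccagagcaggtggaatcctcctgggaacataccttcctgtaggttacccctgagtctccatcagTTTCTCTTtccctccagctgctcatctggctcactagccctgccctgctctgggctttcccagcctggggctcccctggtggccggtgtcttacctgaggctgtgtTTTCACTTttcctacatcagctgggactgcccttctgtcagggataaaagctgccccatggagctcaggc
IFNL3: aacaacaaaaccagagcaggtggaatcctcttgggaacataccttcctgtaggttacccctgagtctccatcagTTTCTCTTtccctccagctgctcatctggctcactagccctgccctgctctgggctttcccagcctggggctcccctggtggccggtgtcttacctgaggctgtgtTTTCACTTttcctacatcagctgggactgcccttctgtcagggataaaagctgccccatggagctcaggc

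The windows of IFNL2 and IFNL3 were identical at 249 of 250 positions (99.6%), and the substitution was C31T, counted from 1 at the 5′ end of the printed window with the IFNL2 base first. IFNL1 and IFNL2, compared position by position without gaps, shared 70 of 250. That count does not measure likeness where a window is shifted against the other. The near copies IFNA1 and IFNA13 shared 66 of 250 by the same measure. The IRF core occurred 2 times upstream of IFNB1, at -89 to -82 and -76 to -69 from the start. It occurred 3 times upstream of IFNL1, all on the minus strand, at -214 to -207, -208 to -201 and -74 to -67, the first pair overlapping. IFNL2 and IFNL3 each had it at -176 to -169 and -70 to -63 on the minus strand. Among all 35116 promoter windows of the same length, 20.3% held at least 1 such match, 4.54% at least 2 and 0.92% at least 3. The NF-kB consensus was found at -66 to -57 upstream of IFNB1 and at -110 to -101 upstream of IFNL2 and IFNL3, against 5.21% of all windows. Of the 4 printed windows, that of IFNB1 held TATAAA, at -31 to -26, a TATA box that 10.7% of all windows share. The AP-1 element TGANTCA was found in none of the windows, against 6.57% of all.

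The other type I windows held some or none of the same elements. IFNA1 held a pair of overlapping IRF cores at -88 to -81 and -82 to -75, IFNK held 1 at -107 to -100 and a TATAAA at -30 to -25, and IFNE held none of the 4 elements. Windows were matched for 7 of the 8 genes, the exception being IFNL4. A match describes the letters of the window and not a bound site.

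**Figure D1:**
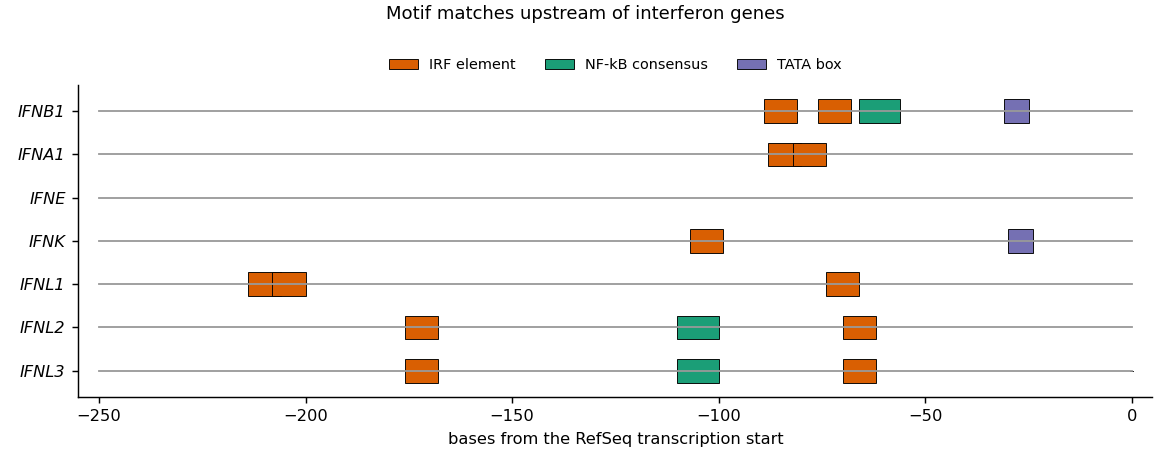
Matches to the IRF core, the NF-kB consensus and the TATA box in the 250 bases upstream of 7 interferon genes. The horizontal axis is the distance in bases from the RefSeq start and each box is 1 match. IFNL2 and IFNL3 show the same boxes, IFNB1 shows its IRF, NF-kB and TATA matches within 89 bases of the start, and IFNE shows none.

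The highest levels of the 8 genes were those of 3 type III genes in Osi_cIGF1R. IFNL1, which encodes interferon lambda 1 (chromosome 19 from 39296407 to 39298673, GRCh38.p14), had 17.9, 16.4 and 19.3 FPKM in Osi_cIGF1R, against 0, 0.125 and 0 FPKM in Osi_Lin_EV and 0 in all 3 DMSO_EV libraries. Its 3 Osi_cIGF1R libraries lay far above the other 6, of which 5 were listed at 0. IFNL2 (chromosome 19 from 39268396 to 39270188) had 8.13, 8.56 and 11.1 FPKM in Osi_cIGF1R and was listed at 0 in every Osi_Lin_EV and DMSO_EV library. IFNL3 (chromosome 19 from 39243455 to 39245250) had 8.41, 9.07 and 11.9 FPKM in Osi_cIGF1R, against 0.0503, 0.194 and 0.0321 FPKM in Osi_Lin_EV and 0, 0.0800 and 0 FPKM in DMSO_EV. The Osi_cIGF1R values of IFNL3 did not overlap those of either other group, while Osi_Lin_EV and DMSO_EV overlapped. Interferons lambda 2 and lambda 3 are nearly identical proteins, and how the authors' counting divided reads between such copies is not given in the sources used here, so the split between IFNL2 and IFNL3 is uncertain.

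IFNL4 (chromosome 19 from 39246314 to 39248856) makes interferon lambda 4 only from an allele that many people lack, and RefSeq annotates it in the reference assembly as a transcribed pseudogene. It had 0.387, 0.298 and 0.247 FPKM in Osi_cIGF1R, against 0.161, 0.0241 and 0.0745 FPKM in Osi_Lin_EV and 0 in all 3 DMSO_EV libraries. These levels are all below 1 FPKM, although the 3 groups did not overlap. It begins 1.06 kb from IFNL3, and within Osi_cIGF1R the IFNL3 level was 33.5 ± 13.6 times that of IFNL4 (SD, n = 3, range 21.7 to 48.4).

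Of the type I genes, IFNB1 (chromosome 9 from 21077104 to 21077942), which encodes interferon beta, had 2.03, 1.72 and 2.43 FPKM in Osi_cIGF1R. It was listed at 0 in all 3 Osi_Lin_EV and all 3 DMSO_EV libraries, so no fold change is given. The mean of IFNB1 was 2.06 ± 0.357 FPKM in Osi_cIGF1R, against 17.9 ± 1.46 FPKM for IFNL1 in the same libraries (SD, n = 3), and the ratio of IFNL1 to IFNB1 within a library was 8.76 ± 0.798. In the order of mean level among all 34021 genes in Osi_cIGF1R, IFNL1 ranked 3166, IFNL3 5037, IFNL2 5242, IFNB1 10452 and IFNE 11622.

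IFNE (chromosome 9 from 21480839 to 21482313) encodes interferon epsilon, known for steady expression in the epithelium of the female reproductive tract. It had 1.44, 1.49 and 1.19 FPKM in Osi_cIGF1R, 2.22, 2.81 and 2.37 FPKM in Osi_Lin_EV, and 2.72, 1.55 and 1.45 FPKM in DMSO_EV. It was thus the 1 member at or above 1 FPKM in all 9 libraries, with Osi_cIGF1R below Osi_Lin_EV in every library and overlapping DMSO_EV. The difference of mean log2(FPKM + 1) was -0.55 for Osi_cIGF1R minus Osi_Lin_EV and -0.27 for Osi_cIGF1R minus DMSO_EV, and the second was -0.0788 without DMSO_EV replicate 1. RefSeq places the whole of IFNE inside MIR31HG, a long noncoding RNA gene on the same strand (chromosome 9 from 21454268 to 21559798). MIR31HG had 7.05 ± 0.291 FPKM in Osi_cIGF1R, 4.71 ± 0.475 FPKM in Osi_Lin_EV and 6.17 ± 0.296 FPKM in DMSO_EV (SD, n = 3). The ratio of IFNE to MIR31HG was 0.195 in Osi_cIGF1R, 0.523 in Osi_Lin_EV and 0.312 in DMSO_EV. Reads of these overlapping genes on 1 strand cannot be fully separated, and the level of IFNE is uncertain for that reason.

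IFNA1 (chromosome 9 from 21440439 to 21441316), an interferon alpha gene, had 0.0877, 0.115 and 0.159 FPKM in Osi_cIGF1R, 0.209, 0.407 and 0.298 FPKM in Osi_Lin_EV, and 0.411, 0.278 and 0.527 FPKM in DMSO_EV. All Osi_cIGF1R libraries lay below all others, Osi_Lin_EV and DMSO_EV overlapped, and every value was under 1 FPKM. IFNK (chromosome 9 from 27524290 to 27526498), the interferon kappa gene known from keratinocytes, was listed at 0 in 8 of 9 libraries and had 0.0513 FPKM in Osi_Lin_EV replicate 2. It overlaps MOB3B on the opposite strand, and the use of strand in counting is not given in the sources used here.

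**Figure D2:**
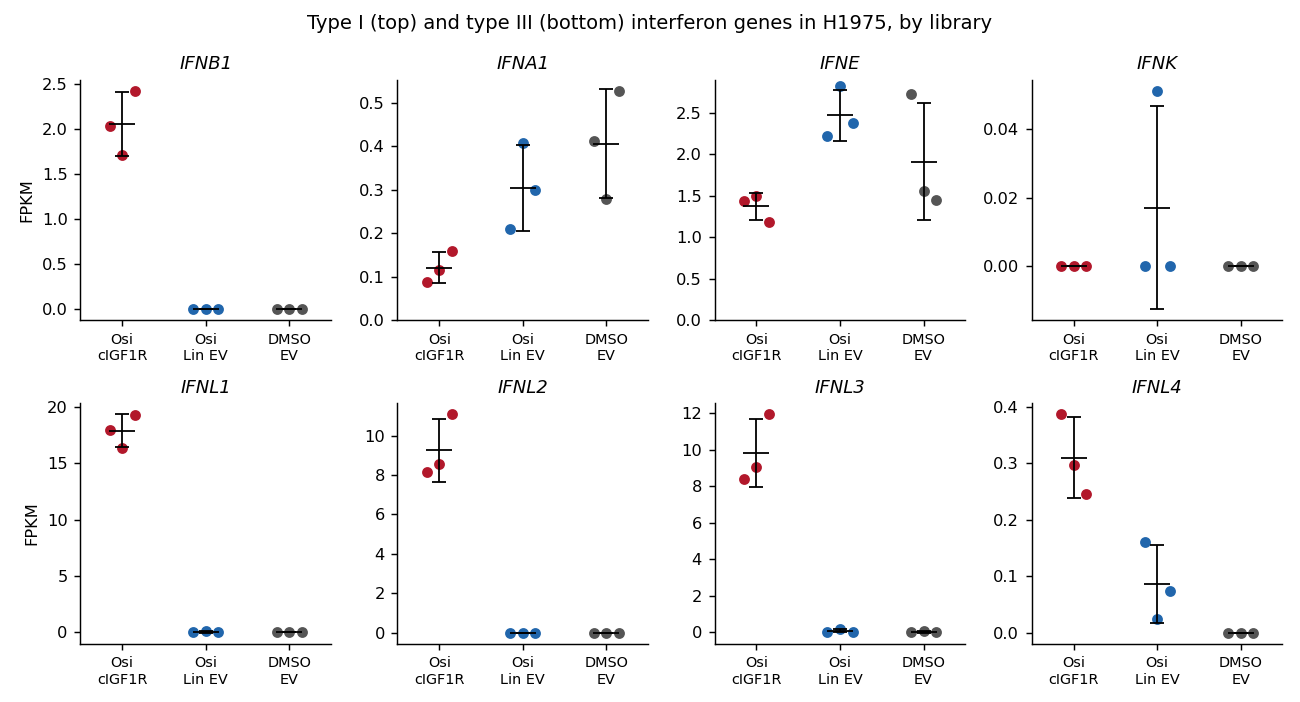
FPKM of the 8 interferon genes in each library, with Osi_cIGF1R, Osi_Lin_EV and DMSO_EV from left to right. Points are libraries, the horizontal line is the group mean and the bars are 1 SD (n = 3). Each panel has its own scale. IFNB1 and IFNL1 to IFNL3 are near or at 0 outside Osi_cIGF1R, whereas IFNE and IFNA1 have their lowest means in Osi_cIGF1R.

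Summed per library, the 4 lambda genes had 37.2 ± 4.61 FPKM in Osi_cIGF1R, 0.220 ± 0.118 FPKM in Osi_Lin_EV and 0.0267 ± 0.0462 FPKM in DMSO_EV (SD, n = 3). They made up 91.3 ± 0.567% of the summed level of the 8 genes in Osi_cIGF1R, against 7.11 ± 2.92% in Osi_Lin_EV and 1.39 ± 2.42% in DMSO_EV. Type I genes summed to 3.55 ± 0.227 FPKM in Osi_cIGF1R, 2.79 ± 0.434 FPKM in Osi_Lin_EV and 2.31 ± 0.712 FPKM in DMSO_EV, and outside Osi_cIGF1R most of that sum was IFNE. The order of levels in Osi_cIGF1R was IFNL1, IFNL3, IFNL2, IFNB1, IFNE, IFNL4, IFNA1 and IFNK. Neighbours in that order did not overlap across the 3 libraries, except IFNL3 and IFNL2. IFNL3 exceeded IFNL2 in each Osi_cIGF1R library, by a ratio of 1.06 ± 0.0218, while their ranges overlapped. A filter of at least 1 FPKM in at least 3 libraries, used for all tests, was passed by 5 of the 8 genes. IFNB1, IFNL1, IFNL2 and IFNL3 passed it through Osi_cIGF1R alone and IFNE through all 9 libraries.

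Other interferon genes were at or near 0. Of 14 further interferon genes looked up, 5 were in the table (IFNA2, IFNA5, IFNA8, IFNA13 and IFNW1), none passed the filter, and the highest value among them was 0.209 FPKM for IFNA13 in Osi_cIGF1R replicate 2. IFNA13 and IFNA1 are near copies, so their reads may be divided between them. Among 10 interferon pseudogenes, IFNL3P1 was the 1 that reached 1 FPKM. IFNL3P1 had 3.08, 3.54 and 3.10 FPKM in Osi_cIGF1R, against 0, 0.261 and 0 FPKM in Osi_Lin_EV and 0, 0.132 and 0 FPKM in DMSO_EV. IFNL4P1 had 0.327, 0.381 and 0.254 FPKM in Osi_cIGF1R and was listed at 0 in the other 6 libraries. Both lie in the same stretch of chromosome 19 as the lambda genes, IFNL3P1 6.12 kb from IFNL3 and IFNL4P1 2.58 kb from IFNL2, and both resemble their parent genes in sequence, so part of their reads may belong to those.

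The lambda genes span 55.2 kb, and 25 other genes within 500 kb of them were tested with limma on log2(FPKM + 1), adjusted by Benjamini-Hochberg over all 13775 genes that passed the filter. In Osi_cIGF1R minus DMSO_EV, 5 of these 25 were higher and 12 lower, with a median log2 fold change of -0.18, against 33.1% higher and 35.8% lower (69% in either direction) of all genes tested, whose median was -0.025. The highest of the 25 was LRFN1, 7.9 kb from IFNL1, a gene of a synaptic adhesion protein named here after its values were seen. LRFN1 had 7.03 ± 0.459 FPKM in Osi_cIGF1R, 1.95 ± 0.0335 FPKM in Osi_Lin_EV and 2.15 ± 0.0298 FPKM in DMSO_EV (SD, n = 3). Its log2 fold change of Osi_cIGF1R over DMSO_EV was 1.35 ± 0.0885 (SE, limma adjusted p = 1.6e-08). The most abundant neighbours were RPS16, a ribosomal protein gene, HNRNPL, a splicing factor gene, and ECH1, a gene of fatty acid oxidation, with log2 fold changes of -1.40, -1.01 and -0.18 in the same comparison. RPS16 and HNRNPL passed the test and ECH1 did not (limma adjusted p = 1.39e-06, 2.44e-07 and 0.144).

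**Figure D3:**
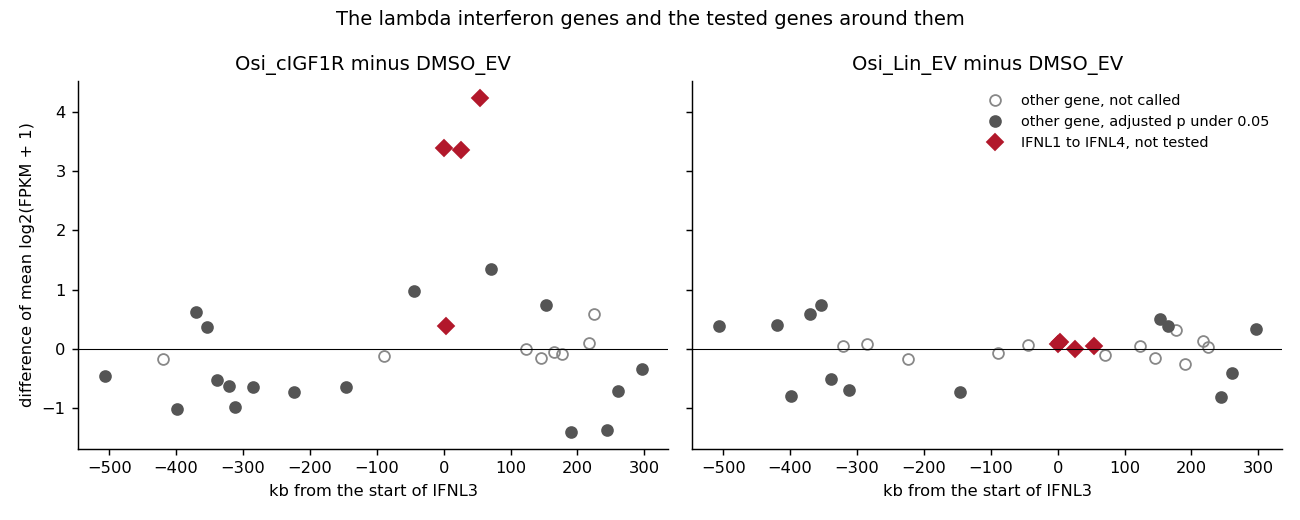
Difference of mean log2(FPKM + 1) for IFNL1 to IFNL4 (diamonds, not tested) and for the 25 tested genes within 500 kb of them (circles, filled where the limma adjusted p was under 0.05). The horizontal axis is the distance of each gene's midpoint from the start of IFNL3 in kb. Left, Osi_cIGF1R minus DMSO_EV. Right, Osi_Lin_EV minus DMSO_EV. On the left IFNL1, IFNL2 and IFNL3 stand between 3.35 and 4.23 and no neighbour exceeds 1.35.

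Around IFNB1, IFNA1 and IFNE on chromosome 9, 7 other genes within 500 kb were tested. In Osi_cIGF1R minus DMSO_EV, 3 were higher and 2 lower, with a median log2 fold change of 0.19, so that the share called was near the 69% of all genes. The largest rise was that of MLLT3, a transcription elongation gene named after its values were seen, at 1.25 (limma adjusted p = 1.79e-07). MLLT3 had 4.75 ± 0.170 FPKM in Osi_cIGF1R, 2.32 ± 0.139 FPKM in Osi_Lin_EV and 1.43 ± 0.285 FPKM in DMSO_EV (SD, n = 3). The most abundant of these neighbours, CDKN2A, which encodes cell cycle inhibitors, had 365 ± 61.8 FPKM in Osi_cIGF1R, 387 ± 13.3 FPKM in Osi_Lin_EV and 318 ± 21.4 FPKM in DMSO_EV and did not pass in any comparison. MIR31HG did not pass between Osi_cIGF1R and DMSO_EV (limma adjusted p = 0.125). KLHL9, an intronless gene of a ubiquitin ligase adaptor lying among the interferon genes, rose by 0.50 (limma adjusted p = 0.00109). Near IFNK, none of 3 tested genes passed in that comparison.

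The receptor chains were measured at low to moderate levels in all 9 libraries. IFNLR1, the chain that is specific to interferon lambda, had 2.61, 2.59 and 2.11 FPKM in Osi_cIGF1R, against 1.36, 1.31 and 1.11 FPKM in Osi_Lin_EV and 1.27, 0.931 and 1.38 FPKM in DMSO_EV. Its Osi_cIGF1R libraries lay above all others, and it rose by 0.65 ± 0.111 over DMSO_EV and by 0.60 ± 0.111 over Osi_Lin_EV on the log2 scale (SE, limma adjusted p = 0.000147 and 0.000401). IL10RB, the shared chain that interleukin 10 also uses, had 15.1, 15.6 and 17.3 FPKM in Osi_cIGF1R, 10.9, 11.6 and 9.01 FPKM in Osi_Lin_EV, and 7.18, 8.57 and 9.12 FPKM in DMSO_EV. It rose by 0.88 ± 0.113 in Osi_cIGF1R over DMSO_EV (SE, limma adjusted p = 1.2e-05) and by 0.57 over Osi_Lin_EV (0.000733). Its rise of 0.31 in Osi_Lin_EV over DMSO_EV (0.0348) was lost under other processing settings and without any of 4 libraries, with limma adjusted p of 0.126 without DMSO_EV replicate 1, 0.0586 without DMSO_EV replicate 2, 0.103 without Osi_Lin_EV replicate 1 and 0.151 without Osi_Lin_EV replicate 2.

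The chains of the type I receptor differed from each other. IFNAR1 had 3.73, 3.65 and 4.14 FPKM in Osi_cIGF1R, 2.98, 2.66 and 2.45 FPKM in Osi_Lin_EV, and 1.71, 2.11 and 2.90 FPKM in DMSO_EV. It rose by 0.60 ± 0.127 in Osi_cIGF1R over DMSO_EV (SE, limma adjusted p = 0.000931). Its rise of 0.39 over Osi_Lin_EV (0.0173) was lost without Osi_cIGF1R replicate 3 (0.0572) and without Osi_Lin_EV replicate 3 (0.0647). IFNAR2 had 2.17, 2.05 and 2.50 FPKM in Osi_cIGF1R, against 3.63, 3.47 and 3.47 FPKM in Osi_Lin_EV and 2.62, 2.22 and 2.98 FPKM in DMSO_EV. The Osi_Lin_EV libraries of IFNAR2 were above all others. It fell by 0.48 in Osi_cIGF1R relative to Osi_Lin_EV (limma adjusted p = 0.00131), and Osi_cIGF1R and DMSO_EV overlapped, with a log2 fold change of -0.15 ± 0.104 (SE, limma adjusted p = 0.206). Its rise of 0.33 in Osi_Lin_EV over DMSO_EV (0.0164) was lost without DMSO_EV replicate 2 (0.0792) and without Osi_Lin_EV replicate 1 (0.0539).

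Of the 9 genes of the receptor and signalling list, all were tested, and 7 rose and none fell in Osi_cIGF1R over DMSO_EV, with a median log2 fold change of 0.88. That is 77.8% called, beside 69% of all genes (33.1% higher, 35.8% lower). Which direction is the more frequent over all genes depends on the scaling: under median-of-ratios rescaling 4881 genes were higher and 4670 lower there, in place of 4563 and 4936. STAT2, a transcription factor that works bound to IRF9, averaged 112 ± 10.5 FPKM in Osi_cIGF1R, 14.5 ± 0.576 FPKM in Osi_Lin_EV and 7.98 ± 0.309 FPKM in DMSO_EV (SD, n = 3). IRF9, the DNA-binding subunit of that complex, was intermediate in Osi_Lin_EV, where it had 41.6 ± 1.22 FPKM, against 15.8 ± 2.57 FPKM in DMSO_EV, a rise of 1.35 on the log2 scale (limma adjusted p = 2.22e-07). In that comparison 6 of the 9 genes rose and none fell, with a median of 0.33, beside 29% higher and 23.5% lower (52.6% in either direction) of all genes tested and a median over all genes of 0.053. Under median-of-ratios rescaling 3274 genes were higher and 3827 lower, in place of 3999 and 3242. Between Osi_cIGF1R and Osi_Lin_EV, 7 rose, and IFNAR2 and TYK2 fell, with a median of 0.57, beside 25.9% higher and 34.8% lower (60.7% in either direction) of all genes and a median over all genes of -0.087. That balance turned too, to 4463 genes higher and 3669 lower under the same rescaling, in place of 3568 and 4788. The 3 comparisons share their groups pairwise, so their values are not independent.

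**Figure D4:**
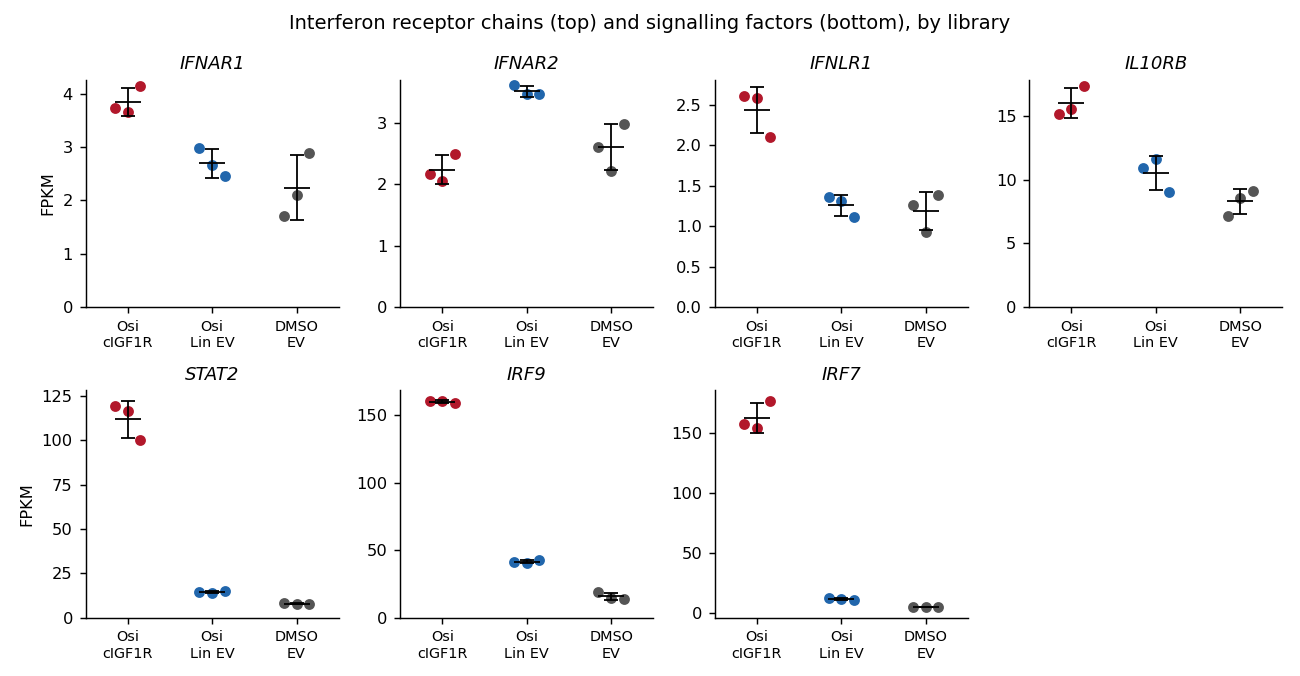
FPKM of the receptor chain genes (top row) and of STAT2, IRF9 and IRF7 (bottom row) in each library, with Osi_cIGF1R, Osi_Lin_EV and DMSO_EV from left to right, the group mean and 1 SD (n = 3) and a scale of its own per panel. The bottom 3 genes stand in Osi_cIGF1R far above both other groups, and the receptor chains differ between groups by smaller ratios.

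Genes that lead to interferon transcription were read from a list of 20 nucleic acid sensors, adaptors and kinases, of which 17 were tested. In Osi_cIGF1R over DMSO_EV 13 rose, 1 fell and 3 missed the threshold, the median being 2.03. ZBP1, a sensor of left-handed nucleic acid, passed the filter through Osi_cIGF1R alone and was thus selected for a high level there. Of the other 16 genes, 12 rose, beside 31.3% of all genes that passed the filter without Osi_cIGF1R. DDX58, which encodes the RNA sensor RIG-I, had 118, 121 and 124 FPKM in Osi_cIGF1R, against 4.01, 3.08 and 3.32 FPKM in Osi_Lin_EV and 2.14, 2.26 and 2.52 FPKM in DMSO_EV. IFIH1, which encodes the sensor of long double-stranded RNA MDA5, had 70.1, 71.9 and 70.2 FPKM in Osi_cIGF1R, 1.34, 1.67 and 1.24 FPKM in Osi_Lin_EV, and 0.665, 0.689 and 0.959 FPKM in DMSO_EV. Neither gene's Osi_cIGF1R libraries overlapped the rest, and the log2 fold changes over DMSO_EV were 5.21 ± 0.0962 and 5.34 ± 0.101 (SE, limma adjusted p = 6.31e-14 and 7.08e-14). The endosomal sensor gene TLR3 was also higher (3.22), while TLR7 was listed at 0 in all Osi_cIGF1R libraries and TLR9 stayed at or below 0.211 FPKM there.

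MAVS, the adaptor of RIG-I and MDA5, had 17.9 ± 3.12 FPKM in Osi_cIGF1R, 23.4 ± 0.244 FPKM in Osi_Lin_EV and 18.5 ± 0.411 FPKM in DMSO_EV, with Osi_cIGF1R and DMSO_EV overlapping. TRAF3, a ubiquitin ligase downstream of MAVS, was the member that fell (-0.82, limma adjusted p = 3.02e-06). STING1, the adaptor of the DNA sensor cGAS, had 31.3 ± 1.36 FPKM in Osi_cIGF1R, 5.07 ± 0.435 FPKM in Osi_Lin_EV and 6.13 ± 0.170 FPKM in DMSO_EV (SD, n = 3). CGAS itself had 4.89, 5.88 and 6.63 FPKM in Osi_cIGF1R, 1.99, 1.61 and 1.60 FPKM in Osi_Lin_EV, and 4.37, 3.90 and 5.17 FPKM in DMSO_EV. Here the Osi_Lin_EV libraries were the low ones, at 0.387 times the DMSO_EV mean (limma adjusted p = 1.53e-05). Over the list, 7 rose, 3 fell and 7 missed the threshold between Osi_Lin_EV and DMSO_EV, and the median was 0.12 beside 0.053 for all genes. The share called in either direction, 58.8%, was near the 52.6% of all genes (29% higher, 23.5% lower). In Osi_cIGF1R minus Osi_Lin_EV 13 rose, and MAVS and TRAF3 fell, with a median of 2.04. Without ZBP1 12 of 16 rose there (75%), beside 24.1% of all genes that passed the filter without Osi_cIGF1R.

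Of the factors that bind interferon promoters, 14 were listed. Of 13 tested, 9 rose, 3 fell and 1 missed the threshold in Osi_cIGF1R over DMSO_EV, and the median was 0.50. The share called was 92.3%, beside 69% of all genes (33.1% higher, 35.8% lower). PRDM1 passed the filter through Osi_cIGF1R alone and was thus selected for a high level there. Of the other 12, 8 rose (66.7%), beside 31.3% of all genes that passed the filter without Osi_cIGF1R. IRF7, the regulator that amplifies interferon transcription, had 157, 154 and 177 FPKM in Osi_cIGF1R, against 11.8, 11.2 and 10.7 FPKM in Osi_Lin_EV and 4.64, 4.99 and 4.35 FPKM in DMSO_EV. The 3 groups of IRF7 did not overlap, and it rose in Osi_Lin_EV over DMSO_EV by 1.11 ± 0.0904 (SE, limma adjusted p = 3.53e-07). IRF3, the factor that is already present in resting cells, had 82.0 ± 12.8 FPKM in Osi_cIGF1R, 87.7 ± 2.43 FPKM in Osi_Lin_EV and 98.9 ± 5.07 FPKM in DMSO_EV (SD, n = 3), a log2 fold change of -0.28 in Osi_cIGF1R relative to DMSO_EV (limma adjusted p = 0.0375) with overlapping libraries. RELA, an NF-kB subunit, rose by 1.07. JUN, a subunit of AP-1, and HMGA1, an architectural protein of the IFNB1 enhancer, fell by 0.73 and by 1.87 on the log2 scale. HMGA1 had 119 ± 3.67 FPKM in Osi_cIGF1R, 199.6 ± 13.3 FPKM in Osi_Lin_EV and 442 ± 78.1 FPKM in DMSO_EV. JUN was highest in Osi_Lin_EV, at 90.4 ± 3.30 FPKM, against 51.4 ± 1.18 FPKM in DMSO_EV (SD, n = 3). Of the 13 factors, 5 rose and 3 fell in Osi_cIGF1R minus Osi_Lin_EV (median 0.22), and 7 rose and 2 fell in Osi_Lin_EV minus DMSO_EV (median 0.32). The shares called, 61.5% and 69.2%, stand beside 60.7% and 52.6% of all genes, the first of them near that background.

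Enzymes that destroy or edit the cell's own nucleic acid formed a further list. Of 11 tested, 6 rose, 3 fell and 2 missed the threshold in Osi_cIGF1R over DMSO_EV (median 0.91), 81.8% called beside 69% of all genes. SAMHD1, which hydrolyses nucleotides, and TREX1, a DNA exonuclease, rose by 4.17 and 3.93 on the log2 scale. ADAR, the editor of double-stranded RNA, had 142, 141 and 116 FPKM in Osi_cIGF1R, against 29.4, 26.2 and 25.6 FPKM in Osi_Lin_EV and 18.0, 22.4 and 24.6 FPKM in DMSO_EV. PNPT1, a mitochondrial RNA-degrading enzyme, had 40.7 ± 1.14 FPKM in Osi_cIGF1R, 2.24 ± 0.0286 FPKM in Osi_Lin_EV and 5.03 ± 0.360 FPKM in DMSO_EV (SD, n = 3). The members that fell were RNASEH2A and RNASEH2B, subunits of the nuclease that removes RNA from DNA, and SUPV3L1, the helicase that works with PNPT1. RNASEH2A had 6.50, 6.48 and 9.73 FPKM in Osi_cIGF1R, 3.99, 5.51 and 5.04 FPKM in Osi_Lin_EV, and 24.2, 25.3 and 23.6 FPKM in DMSO_EV, low in both osimertinib-treated groups. It fell by 1.59 in Osi_cIGF1R and by 2.13 in Osi_Lin_EV relative to DMSO_EV (limma adjusted p = 3.06e-07 and 4.38e-08). SUPV3L1 fell by 0.69 in Osi_cIGF1R and by 0.51 in Osi_Lin_EV. Of the 11 genes, 7 rose and none fell in Osi_cIGF1R minus Osi_Lin_EV (median 0.67). The share called in either direction, 63.6%, was near the 60.7% of all genes. All of these calls were higher, and that share stands beside 24.1% higher of all genes that passed the filter without Osi_cIGF1R. In Osi_Lin_EV minus DMSO_EV 4 rose and 4 fell (median 0.15), 72.7% called beside 52.6% of all genes, and 5 in place of 8 were called (1 higher, 4 lower) without DMSO_EV replicate 2 and, likewise, under median-of-ratios rescaling.

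Cytokine genes that share IRF3 and NF-kB with IFNB1 were 12 in number. Of these, 10 were tested, and in Osi_cIGF1R minus DMSO_EV 5 rose and 5 fell, with a median of -0.011, beside 33.1% higher and 35.8% lower of all genes. The 5 that rose (CCL5, CXCL10, CXCL11, IL15 and TNFSF10) passed the filter only with the help of Osi_cIGF1R and were thus selected for a high level there. CCL5, a T-cell chemokine, had 66.4, 69.3 and 78.8 FPKM in Osi_cIGF1R, against 0.0643, 0.0375 and 0.0788 FPKM in Osi_Lin_EV and 0.0474, 0 and 0.0866 FPKM in DMSO_EV. TNFSF10, which encodes the death ligand TRAIL, averaged 235 ± 11.1 FPKM in Osi_cIGF1R, 1.14 ± 0.352 FPKM in Osi_Lin_EV and 0.286 ± 0.133 FPKM in DMSO_EV (SD, n = 3). The 5 that fell were CXCL8, IL1B, CXCL1, TNF and CCL20, all inflammatory cytokines or chemokines. CXCL8, the neutrophil chemokine interleukin 8, had 6.57, 5.29 and 6.57 FPKM in Osi_cIGF1R, 4.45, 2.95 and 3.68 FPKM in Osi_Lin_EV, and 34.7, 36.8 and 45.5 FPKM in DMSO_EV. Osi_cIGF1R and Osi_Lin_EV both lay below DMSO_EV, with log2 fold changes of -2.48 and -3.10 (limma adjusted p = 2.28e-09 and 7.89e-10), and Osi_cIGF1R was above Osi_Lin_EV by 0.61 (0.00157). IL6, among those listed but not tested, had 0.848 ± 0.276 FPKM in Osi_cIGF1R, 0.179 ± 0.0765 FPKM in Osi_Lin_EV and 0.739 ± 0.0245 FPKM in DMSO_EV. Of the 10 tested, 7 rose and 2 fell in Osi_cIGF1R minus Osi_Lin_EV (median 0.81). That is 90% called, beside 60.7% of all genes (25.9% higher, 34.8% lower). In Osi_Lin_EV minus DMSO_EV 1 rose and 4 fell (median -0.12). Of the 5 that pass the filter without Osi_cIGF1R, 2 rose and 2 fell in Osi_cIGF1R minus Osi_Lin_EV. The share that rose, 40%, stands beside 24.1% of all genes that passed the filter without Osi_cIGF1R. The share called in either direction in Osi_Lin_EV minus DMSO_EV, 50% of 10, was near the 52.6% of all genes (29% higher, 23.5% lower). Leaving out any 1 Osi_cIGF1R library dropped 4 of the genes that rose below the filter, so that 6 were called over DMSO_EV and 4 or 5 over Osi_Lin_EV.

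Of 36 interferon-stimulated genes, all were tested and all rose in Osi_cIGF1R, with a median log2 fold change of 5.23 over DMSO_EV and 5.16 over Osi_Lin_EV. The filter would have dropped 13 of them without Osi_cIGF1R, and those were thus selected for a high level there. The other 23 also all rose over DMSO_EV, with a median of 4.97, beside 31.3% of all genes that passed the filter without Osi_cIGF1R. Over Osi_Lin_EV all 23 rose too, with a median of 4.72, beside 24.1% of all genes that passed in the same way. IFIT2, an RNA-binding antiviral protein among these 23, had a log2 fold change of 8.66 over DMSO_EV. OASL and IFI27, with 8.51 and 8.62, are among the 13 so selected. Between Osi_Lin_EV and DMSO_EV 19 of the 36 rose, 2 fell and 15 missed the threshold, the median being 0.35. The share called in either direction, 58.3%, was near the 52.6% of all genes (29% higher, 23.5% lower). Of the 23 that pass the filter without Osi_cIGF1R, 15 rose (65.2%) and 2 fell. That stands beside 29.2% higher of all genes that passed in the same way. In that comparison IFI6 rose by 1.46, MX1 by 1.17 and IFITM1 by 1.06, whereas the double-stranded RNA sensor OAS3 fell by 0.97 and the scramblase gene PLSCR1 by 0.34 on the log2 scale. IFNB1 and the lambda genes were at or near 0 in both of those groups.

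Of the feedback inhibitors of the pathway, 10 were tested, and 6 rose, 1 fell and 3 missed the threshold in Osi_cIGF1R over DMSO_EV (median 0.54). The share called in either direction, 70%, was near the 69% of all genes (33.1% higher, 35.8% lower). SOCS1 failed the filter without Osi_cIGF1R and was thus selected for a high level there. Of the other 9, 5 rose (55.6%), beside 31.3% of all genes that passed the filter without Osi_cIGF1R. USP18, a protease that blocks IFNAR2 signalling, had 86.4, 89.8 and 94.4 FPKM in Osi_cIGF1R, against 2.07, 1.80 and 1.92 FPKM in Osi_Lin_EV and 1.82, 2.14 and 2.17 FPKM in DMSO_EV. SOCS1, an inhibitor of JAK kinases, had 5.38, 4.70 and 5.39 FPKM in Osi_cIGF1R, 0.603, 0.528 and 1.59 FPKM in Osi_Lin_EV, and 0.485, 0.521 and 0.541 FPKM in DMSO_EV. ISG15, the ubiquitin-like modifier that stabilises USP18, averaged 3361 ± 818 FPKM in Osi_cIGF1R, 41.4 ± 3.13 FPKM in Osi_Lin_EV and 24.0 ± 1.74 FPKM in DMSO_EV (SD, n = 3). SOCS3, a further JAK inhibitor, did not pass in Osi_cIGF1R over DMSO_EV (-0.18), and PIAS4, an inhibitor of STAT binding to DNA, fell by 0.21, a call lost under median-of-ratios rescaling. Between Osi_Lin_EV and DMSO_EV 5 rose and 2 fell (median 0.27), and between Osi_cIGF1R and Osi_Lin_EV 4 rose and 1 fell (median 0.19). The shares called were 70% and 50%, beside 52.6% and 60.7% of all genes. The last of these counts, 5 called, was 3 without Osi_cIGF1R replicate 1 or without Osi_Lin_EV replicate 2.

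**Figure D5:**
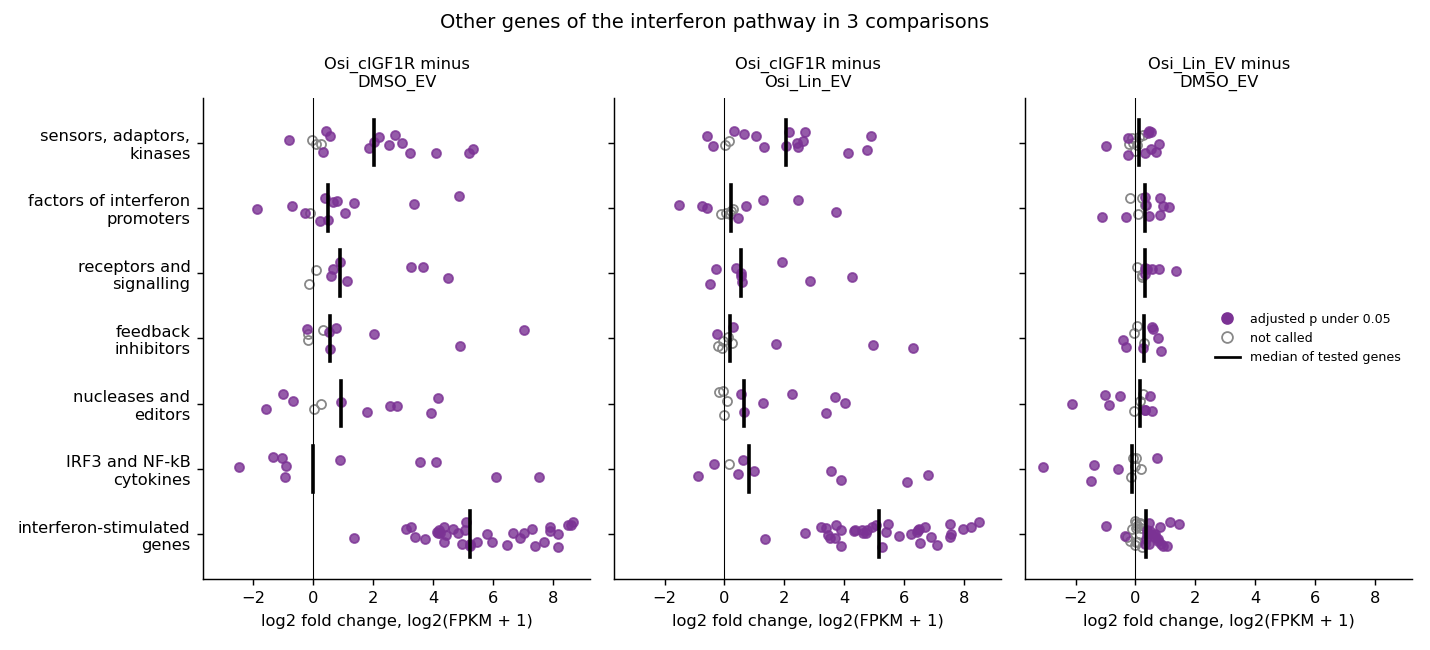
Log2 fold change on the log2(FPKM + 1) scale for each tested gene of 7 lists of the interferon pathway, in Osi_cIGF1R minus DMSO_EV, Osi_cIGF1R minus Osi_Lin_EV and Osi_Lin_EV minus DMSO_EV. Each point is 1 gene, filled where the limma adjusted p was under 0.05, and the vertical bar is the median of the list. In the first and second comparisons every interferon-stimulated gene lies to the right of 0, with medians of 5.23 and 5.16, and in the third the median is 0.35.

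The 5 genes most like each member in their log2(FPKM + 1) values were named by Pearson's r over the 9 libraries. These r values describe 3 groups of 3 libraries, in which any gene high in Osi_cIGF1R alone reaches a high r. Choosing by r also favours genes with a like order of replicates, so a shared order is no further support. For IFNB1 they were CXCL11, NT5C3AP1, ISG20, APOBEC3G and PRSS2 (r = 0.998 for each). CXCL11, the chemokine gene at their head, had 10.7, 9.51 and 12.2 FPKM in Osi_cIGF1R and was listed at 0 elsewhere, with replicate 2 lowest and replicate 3 highest as for IFNB1. For IFNL1 they were SLC15A3, GBP1P1, HLA-B, OASL and CXCL11, for IFNL2 they were IDO1, PRSS2, CASP1, GIMAP2 and ISG20, and for IFNL3 they were GIMAP2, USP30-AS1, HLA-B, HLA-C and IDO1. IDO1, which encodes a tryptophan-degrading enzyme, had 13.6, 13.3 and 16.8 FPKM in Osi_cIGF1R and was listed at 0 in the other 6 libraries. IFNE had another set, headed by LOC100132287 (r = 0.962), CTBP1-AS and PTOV1-AS2. PTOV1-AS2 had 10.7, 10.3 and 9.40 FPKM in Osi_cIGF1R, 18.2, 18.3 and 19.9 FPKM in Osi_Lin_EV, and 18.97, 13.2 and 11.3 FPKM in DMSO_EV, with DMSO_EV replicate 1 high as for IFNE.

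IGF1R, the gene from which cIGF1R takes its name, had 81.4, 82.3 and 101 FPKM in Osi_cIGF1R, against 4.41, 3.56 and 3.73 FPKM in Osi_Lin_EV and 3.76, 4.41 and 4.23 FPKM in DMSO_EV, in the direction of the labels. Reads of a circle and of the linear mRNA are not separated in these values. Library totals ran from 338034 to 474156 FPKM, and mitochondrial transcripts made up 5.28 to 6.41% of the total in Osi_cIGF1R, 18.7 to 23.3% in Osi_Lin_EV and 18.3 to 27.6% in DMSO_EV. DMSO_EV replicate 2 stood apart in RN7SL1, a signal recognition particle RNA, with 443 FPKM against 46.4 and 36.1 FPKM in the other DMSO_EV libraries, and Osi_cIGF1R replicate 1 had 53.2 FPKM against 3.16 and 6.37 FPKM in its group. In RN7SK and RMRP, which are noncoding RNAs as well, DMSO_EV replicate 2 had 177 and 162 FPKM. The other DMSO_EV libraries had 11.5 and 9.43 FPKM of RN7SK and 11.4 and 6.87 FPKM of RMRP. DMSO_EV replicate 2 is also the 1 library of its group in which IFNL3 and IFNL3P1 were above 0, at 0.0800 and 0.132 FPKM. A link between these values was not tested. Epithelial markers were high throughout, all 7 of 7 above 1 FPKM in each group with KRT8 leading. The lung markers NKX2-1, SFTPB and SFTPC were all below 0.1 FPKM on average, and NAPSA reached 1.62 FPKM in Osi_Lin_EV, so the labelled tissue is not visible in them. Of 7 markers of plasmacytoid dendritic cells, the immune cells best known for type I interferon, 3 were in the table, and SPIB and GZMB were listed at 0 in Osi_cIGF1R. The third, IL3RA, had 6.68 FPKM in Osi_cIGF1R, 1.03 FPKM in Osi_Lin_EV and 0.573 FPKM in DMSO_EV on average. Other leukocyte markers, 8 of 9 in the table, summed to 430 to 456 FPKM in Osi_cIGF1R, 31.5 to 36.2 FPKM in Osi_Lin_EV and 25.6 to 33.4 FPKM in DMSO_EV. CD68, a lysosomal gene, made up most of that sum, with 428 FPKM in Osi_cIGF1R, 25.0 FPKM in Osi_Lin_EV and 25.1 FPKM in DMSO_EV, and PTPRC and CD3E, the defining genes of leukocytes and T cells, were below 0.1 FPKM in each group. Of the other leukocyte markers tested, CSF1R averaged 7.28 FPKM in Osi_cIGF1R, 6.57 FPKM in Osi_Lin_EV and 3.14 FPKM in DMSO_EV, CD14 had 3.07, 1.42 and 1.60 FPKM in the same groups, and ITGAM 0.270, 1.22 and 0.310 FPKM. Of 4 fibroblast markers in the table, COL1A1 averaged 5.70 FPKM in Osi_cIGF1R, 3.35 FPKM in Osi_Lin_EV and 3.58 FPKM in DMSO_EV, and no other averaged more than 0.127 FPKM in any group. Of 3 endothelial markers, CDH5 had 0.482 FPKM in Osi_cIGF1R, 0.114 FPKM in Osi_Lin_EV and 3.37 FPKM in DMSO_EV. The share that mitochondrial transcripts, or these markers of other cell types, had in the interferon values was not tested.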

How the data were processed

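RNA-seq of 9 H1975 libraries was used, 3 in each group as the labels give them, of 21 samples. Circular RNA libraries, 12 in number, were not analysed here. The values deposited by the authors are taken as FPKM from their fractions and unequal totals, since the file names no unit. The build hg38 and the tools STAR, edgeR and Bowtie2 (2.1.0) are named without a role, per the submitters' processing notes. For the counter, annotation, use of strand and filters, nothing is given in the sources used here. All samples carry 1 extraction protocol, per the labels, which names a 3-day treatment, the washing away of apoptotic cells and the use of RNase R, which degrades linear RNA. Whether it applies to the RNA-seq libraries is not settled; if it does, the level of an mRNA also reflects how well it withstood the enzyme. FPKM is a share of a library, so the values of all genes move with the share taken by mitochondrial transcripts.

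The 8 genes and all lists were chosen with earlier results of these data known, so they are no independent support. Tests used limma 3.58.1 under R 4.3.3 on log2(FPKM + 1), with a term for group, moderated variances (trend and robust options) and all 9 libraries in 1 fit, for 13775 genes with at least 1 FPKM in at least 3 libraries. P-values were adjusted by Benjamini-Hochberg over all of these, with a threshold of 0.05, two-sided. Adding 1 shrinks the fold changes of weakly expressed genes. The 8 genes stayed in the fit and their tests are not reported. RIG-I was found under the older symbol DDX58. Named genes were the 8 members, the receptor chains, IGF1R, up to 3 called genes per list and comparison with the largest change and no overlap of groups, the 5 genes most like each member, and up to 3 neighbours by mean level. Genes outside this rule were named after their values were seen. Some results for single genes are not reported here. Coordinates and promoters came from RefSeq tables of GRCh38.p14. The fit was tested on simulated data of 12797 to 12832 genes. Of 100 genes shifted by a log2 value of 1 it found 95 in Osi_Lin_EV minus DMSO_EV (14 false among 207 calls), 97 in Osi_cIGF1R minus DMSO_EV (10 false among 205) and 94 in Osi_cIGF1R minus Osi_Lin_EV (14 false among 206). The shifted genes were drawn from those with higher levels in DMSO_EV, and most genes were left unshifted. These rates do not cover weakly expressed genes or data in which most genes are called. The alternatives tried were limma without a trend, rescaling by median of ratios or to equal totals without mitochondrial genes, quantile normalization, pseudocounts of 0.1 and 5, no filter or 1 at 5 FPKM, fitting just the groups compared, a replicate block, and leaving out each library. Python 3.11.15 with pandas 2.3.3, numpy 2.4.6 and matplotlib 3.10.9 read the sequences and drew the figures.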

Additional observations from a re-analysis of the deposited data

How the results depend on the processing

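The signs of the differences of the 8 genes held under every scaling, pseudocount and left-out library tried, except that the small IFNL1 and IFNK differences involving Osi_Lin_EV and DMSO_EV or Osi_cIGF1R became 0 without Osi_Lin_EV replicate 2. Their sizes depend on the pseudocount: IFNB1 in Osi_cIGF1R minus DMSO_EV ran from 0.50 to 4.42 around 1.61, and IFNL1 from 2.19 to 7.49 around 4.23, since both are set against zeros. Counts of called genes stayed within 1.5 times of those reported for the sensors, factors, receptors and interferon-stimulated genes in all 3 comparisons. In Osi_Lin_EV minus DMSO_EV, called nucleases and editors numbered 5 in place of 8 under median-of-ratios rescaling and without a filter, and 5 to 8 with a library left out (5 without DMSO_EV replicate 2). Called cytokines there numbered 3 in place of 5 under the filter at 5 FPKM. With a library left out, called cytokines numbered 6 to 10 in Osi_cIGF1R minus DMSO_EV (6 without any 1 Osi_cIGF1R library) and 4 to 9 in Osi_cIGF1R minus Osi_Lin_EV (5, 4 and 5 without Osi_cIGF1R replicate 1, 2 or 3), because genes that only Osi_cIGF1R lifts over the filter are then no longer tested. For the same reason 26 interferon-stimulated genes in place of 36 were tested and called. Feedback inhibitors in Osi_cIGF1R minus Osi_Lin_EV numbered 3 to 6 in place of 5 (3 without Osi_cIGF1R replicate 1 or Osi_Lin_EV replicate 2), and the cause was not tested. IFNLR1 in Osi_Lin_EV minus DMSO_EV, 0.047 and not called, was -0.00095 under median-of-ratios rescaling and -0.0419 without DMSO_EV replicate 2. IFNAR1 in Osi_Lin_EV minus DMSO_EV passed without DMSO_EV replicate 3 (adjusted p = 0.022, limma). IFNAR1 in Osi_cIGF1R minus Osi_Lin_EV was lost without a filter (limma adjusted p = 0.0639), and IL10RB in Osi_Lin_EV minus DMSO_EV was lost under median-of-ratios rescaling (0.109) and without a filter (0.102). Replicate numbers did not pair the libraries (same-number deviations correlated between -0.315 and 0.0358). With the replicate block, 6838, 9204 and 7963 genes were called in Osi_Lin_EV minus DMSO_EV, Osi_cIGF1R minus DMSO_EV and Osi_cIGF1R minus Osi_Lin_EV, in place of 7241, 9499 and 8356, and IL10RB in the first of these had a limma adjusted p of 0.0532. Median-of-ratios rescaling moved the median of all genes in Osi_cIGF1R minus Osi_Lin_EV from -0.087 to 0.030, so the direction of changes of that size, and the balance of higher and lower calls over all genes in each of the 3 comparisons, depend on the scaling. That rescaling also left fewer list genes lower: in Osi_cIGF1R minus DMSO_EV 2 factors in place of 3 and 0 feedback inhibitors in place of 1, and in Osi_cIGF1R minus Osi_Lin_EV 1 sensor and 1 receptor or signalling gene in place of 2 each, and 0 feedback inhibitors in place of 1. Depth is unknown, which limits what values under 1 FPKM can show.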
